A study of Xenopus laevis with 37 samples.

Results

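The genes described here are the msx and ventx homeobox genes of Xenopus laevis, taken by name from a matrix of transcript abundances: msx1.L, msx1.S, msx2.L, ventx1.1.L, ventx1.2.S and ventx3.2.S. They are 6 of the 40271 rows of that matrix, and all 6 passed the filter on low values. The suffixes .L and .S mark the long and the short chromosome of each homeologous pair in this allotetraploid frog, so msx1.L and msx1.S are 2 copies of 1 gene. The table holds 5 further rows of the same families (msx2.S, ventx1.1.S, ventx1.2.L, ventx3.1.S and ventx3.2.L), which are given where they bear on a copy.

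Both families encode homeodomain transcription factors that act mainly as repressors and are switched on by bone morphogenetic proteins (BMPs), the ligands that pattern the ventral side of the early embryo through phosphorylated Smad1. In the frog gastrula, Ventx proteins keep dorsal organizer genes silent in ventral and lateral tissue. Msx1 and Msx2 are known for ventral mesoderm and epidermis, for the border of the neural plate, where neural crest arises, and for limb and face tissue at later stages in vertebrates generally.

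RNA was sequenced from pieces of Xenopus laevis embryos at stage NF20 in 37 libraries that fall into 15 groups, and levels are given as TPM, a share of all transcripts in a library corrected for gene length. Every group is labelled wild type, the transgenic embryos included. In the inhibitor experiment, embryos stood from stage NF12 to NF20 in 40 µM DMH1, a blocker of BMP type I receptors, in 60 µM BIO, a blocker of GSK3 that activates Wnt signalling through beta-catenin, or in the vehicle DMSO. Hindgut (HG_DMH1, HG_BIO, HG_DMSO) and foregut explants (FG_DMH1, FG_BIO, FG_DMSO) gave 3 libraries a group. In the heat experiment, hindgut and foregut explants came from embryos that received 30 min at 37C followed by 13C to switch on an hsp:Dkk1GFP transgene (HG_HSdkk1, FG_HSdkk1), or no heat (HG_noHS, FG_noHS), with 2 libraries a group. Dkk1 is a secreted Wnt antagonist, the transgene runs from a heat shock promoter, and the series has no heated embryos without it, so heat and Dkk1 cannot be told apart. Hindgut and foregut were also parted into a mesoderm layer (HG_meso, FG_meso) and an endoderm layer (HG_endo, FG_endo), with 2 libraries a group and no treatment given; the hindgut mesoderm group rests on its titles, since its tissue field reads endoderm. Dorsal explants gave the last 3 libraries (Dorsal), with no treatment given. The DMSO groups they are compared with stood in vehicle, so tissue and vehicle cannot be told apart there.

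TPM keep no read numbers, so the depth of each library is unknown and no counting interval can be given. Between 15182 and 22769 features reached 1 TPM in a library, and FG_endo replicate 1 stood apart at the low end, the next lowest library having 18182. Markers of other tissues showed what each piece held. The endoderm layers summed to 9544 to 9870.1 TPM over 14 endoderm marker rows in HG_endo and 2870.0 to 6382 TPM in FG_endo, with epidermis markers at 11.1 to 13.7 and 7.49 to 21.6 TPM. The mesoderm layers held 87.2 to 105 and 124 to 131 TPM of endoderm markers, but 5704 to 7388 TPM of epidermis markers in HG_meso and 6657 to 8511 TPM in FG_meso, with all 10 epidermis rows present. What is labelled mesoderm therefore held epidermis markers, and a value in it may not be read as mesoderm alone. One hindgut library of each heat group (1 HG_HSdkk1 and 1 HG_noHS) had a single unnamed feature at 7.19% and 7.11% of its TPM, and results that rest on these libraries or on FG_endo replicate 1 are given without them below. In these bulk pieces, fewer cells of a type and less RNA per cell cannot be told apart.

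The members differed in their patterns over the 15 groups, which the plot of levels by library shows. All 3 ventx members had their highest mean in hindgut endoderm. There ventx1.1.L reached 239 and 232 TPM, ventx1.2.S 483 and 675 TPM and ventx3.2.S 564 and 347 TPM in the 2 libraries, above every library of the other 14 groups. For ventx1.1.L all 7 hindgut groups ranked above all 8 other groups. For ventx1.2.S and ventx3.2.S, FG_endo interrupted that order, with ventx1.2.S at 38.6 and 121 TPM in its 2 libraries. The lowest mean of ventx1.1.L and of ventx1.2.S was in FG_DMH1, at 1.097 ± 0.0777 and 1.38 ± 0.943 TPM (SD, n = 3). The lowest of ventx3.2.S was in FG_meso, at 0.46 and 0 TPM in the 2 libraries.

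The msx1 copies were found at more than 6 TPM in every library, and msx1.L was the more abundant copy in all 37. Its mean ran from 38.2 ± 22.1 TPM in FG_DMH1 (SD, n = 3) to 556 ± 92.5 TPM in HG_endo (SD, n = 2). The next groups down, HG_noHS, HG_BIO and HG_DMSO, overlapped each other, at 385 ± 14.2 (SD, n = 2), 366 ± 91.4 and 314 ± 72.6 TPM (SD, n = 3 each). The highest mean of msx1.S was in HG_noHS, at 205 ± 40.4 TPM (SD, n = 2), and 5 hindgut groups overlapped in turn at the top. Its lowest means, 10.46 ± 0.735 TPM in FG_endo (SD, n = 2) and 11.4 ± 5.37 TPM in FG_DMH1 (SD, n = 3), overlapped. msx2.L did not follow the region: its highest mean was in FG_BIO, at 33.4 ± 1.01 TPM, its next in HG_BIO, at 25.2 ± 1.29 TPM, and its lowest in FG_DMH1, at 2.56 ± 0.901 TPM (SD, n = 3 each).

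**Figure D1:**
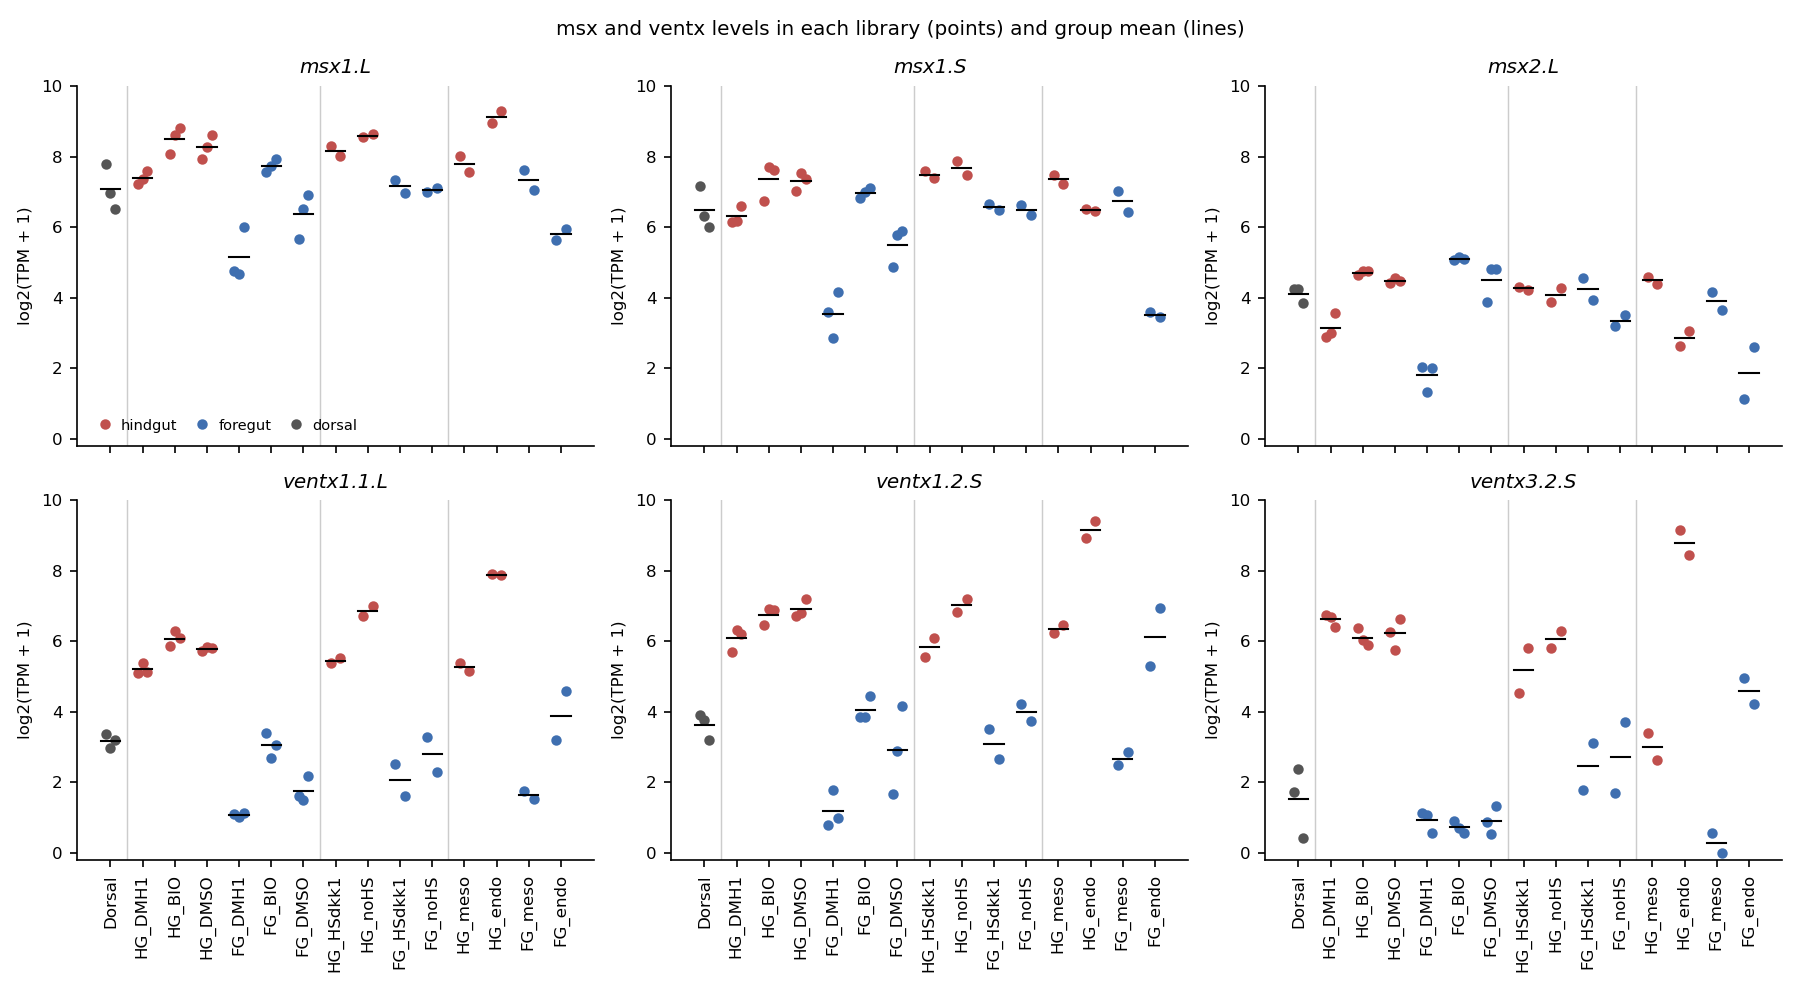
Level of each member as log2(TPM + 1) in every library (points) of the 15 groups, with the group mean as a line; red is hindgut, blue foregut and grey dorsal, and vertical lines part the dorsal, inhibitor, heat and layer groups. The ventx members are higher in red than in blue under each matched treatment or layer and peak in HG_endo, while msx2.L is lowest in FG_DMH1 and FG_endo.

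Across the 15 group means of log2(TPM + 1), the likeness of the members divided msx2.L from the ventx genes. The ventx members had Pearson correlations of 0.912 to 0.970 with each other. msx2.L had −0.14 to 0.12 with the ventx members, 0.810 with msx1.S and 0.55 with msx1.L, while msx1.L had 0.636 to 0.807 with the ventx members. Of 14209 named rows with at least 5 TPM in a group mean, the 3 most like ventx1.1.L were ventx1.2.L (0.992), ventx1.2.S (0.970) and ventx1.1.S (0.944). Those most like ventx1.2.S were ventx1.1.S (0.977), ventx1.2.L (0.973) and ventx1.1.L (0.970). For ventx3.2.S they were ventx3.2.L (0.972), akr1d1.S (0.947), which belongs to the aldo-keto reductase family, and pdlim5.L (0.931), which encodes a PDZ and LIM domain protein. msx2.L was most like msx2.S (0.962), fam212a.S (0.887) and ankrd35.S (0.838). msx1.L was most like fzd10.S (0.871), a Frizzled Wnt receptor, msx1.S (0.866) and agfg1.L (0.857), and msx1.S was most like map2k1.L (0.894), a MAP kinase kinase, msx1.L (0.866) and fam212a.S (0.850). These are descriptions over 15 points. No point shares a library with another, but same-numbered libraries of the inhibitor experiment deviated together, so the points are not all independent. In the RefSeq annotation of assembly Xenopus_laevis_v10.1, ventx3.2, ventx1.2, ventx2.2, ventx1.1 and ventx2.1 lie in that order on chromosome 7L and again on 7S. Those on the same chromosome are therefore neighbours as well as relatives. Among the members, ventx1.1.L lies on 7L, and ventx1.2.S and ventx3.2.S lie on 7S.

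Between the vehicle groups of the 2 regions, both msx1 copies and all 3 ventx members were higher in hindgut, and msx2.L was not called in either direction. msx1.L had 244, 309 and 389 TPM in HG_DMSO, against 49.9, 90.3 and 119 TPM in FG_DMSO. msx1.S had 129, 184 and 162 TPM in HG_DMSO, against 28.2, 53.5 and 57.7 TPM in FG_DMSO. For both copies the lowest hindgut library stood above the highest foregut library (log2 difference 1.91, SE 0.32, adjusted p = 0.000147 for msx1.L, and log2 difference 1.80, SE 0.31, adjusted p = 0.000173 for msx1.S; limma with Benjamini-Hochberg adjustment over 28863 features, as for every adjusted p below). msx2.L had 20.1, 22.5 and 21.2 TPM in HG_DMSO, against 13.6, 26.9 and 27.1 TPM in FG_DMSO, and the groups overlapped (−0.02, SE 0.29).

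The ventx members differed far more between the regions. ventx1.1.L had 51.4, 56.3 and 55.2 TPM in HG_DMSO, against 2.03, 1.83 and 3.55 TPM in FG_DMSO. ventx1.2.S had 104, 109 and 146 TPM in HG_DMSO, against 2.16, 6.36 and 16.9 TPM in FG_DMSO. ventx3.2.S had 76.0, 53.1 and 97.7 TPM in HG_DMSO, against 0.83, 0.44 and 1.48 TPM in FG_DMSO. Every hindgut library stood above every foregut library for these 3 genes, and the differences on the log2(TPM + 1) scale were 16.3-fold (adjusted p = 7.7e-11), 16.0-fold (adjusted p = 1.35e-07) and 39.8-fold (adjusted p = 3.74e-09). Of all features, 6.35% were separated upward in this way, and 23.9% did not overlap in either direction. So 5 of 6 members were higher and none lower, where 7.47% of all features were called and 2.38% were called higher (31.9% of all calls were higher, or 46.9% with median-of-ratios scaling). In a fit to these 6 libraries alone the ventx members kept their calls and the msx1 copies did not (adjusted p = 0.0678 for msx1.L and 0.0536 for msx1.S). Tail bud markers summed to 372 to 702 TPM in HG_DMSO and 2.38 to 9.94 TPM in FG_DMSO, with 9 and 4 of 10 rows reaching 1 TPM. Epidermis markers summed to 3630 to 4147 TPM in HG_DMSO and 2103 to 3381 TPM in FG_DMSO, and neural crest markers to 159 to 244 and 46.4 to 104 TPM. Paraxial and presomitic mesoderm markers summed to 133 to 466 and 7.58 to 9.35 TPM. Blood and endothelium, neural plate, lateral plate and cardiac, and notochord markers were lower in HG_DMSO. The part of these markers in the difference was not tested.

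Hindgut could be set against foregut in 7 sets of libraries, none of which shares a library with another. The sets are not all independent: same-numbered libraries deviated together within the inhibitor experiment, within the layers and between FG_noHS and FG_HSdkk1. All sets also share 1 estimate of the spread. In the fit over all groups, each of the 3 ventx members was called higher in hindgut in 7 of 7. The log2 differences were 3.03 to 4.13 for ventx1.1.L, 2.70 to 4.89 for ventx1.2.S and 2.72 to 5.69 for ventx3.2.S. In fits to the compared groups alone, no member was called in the heat and layer sets. With 1 library left out, ventx3.2.S lost its call in the HSdkk1, noHS and meso sets, and ventx1.2.S in the HSdkk1 set. msx1.L was called in 4 of 7 (0.44 to 3.32), msx1.S in 3 of 7 (0.38 to 2.97) and msx2.L in 1 of 7 (−0.39 to 1.34). The share of all features called in either direction was 9.84% under DMH1 (4.6% higher), 5.39% under BIO (2.65% higher), 0.991% after heat, 1.39% without heat, 2.35% in the mesoderm layer and 18.6% in the endoderm layer. The other copies ventx1.1.S, ventx1.2.L and ventx3.2.L were also called higher in 7 of 7 in the fit over all groups.

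**Figure D2:**
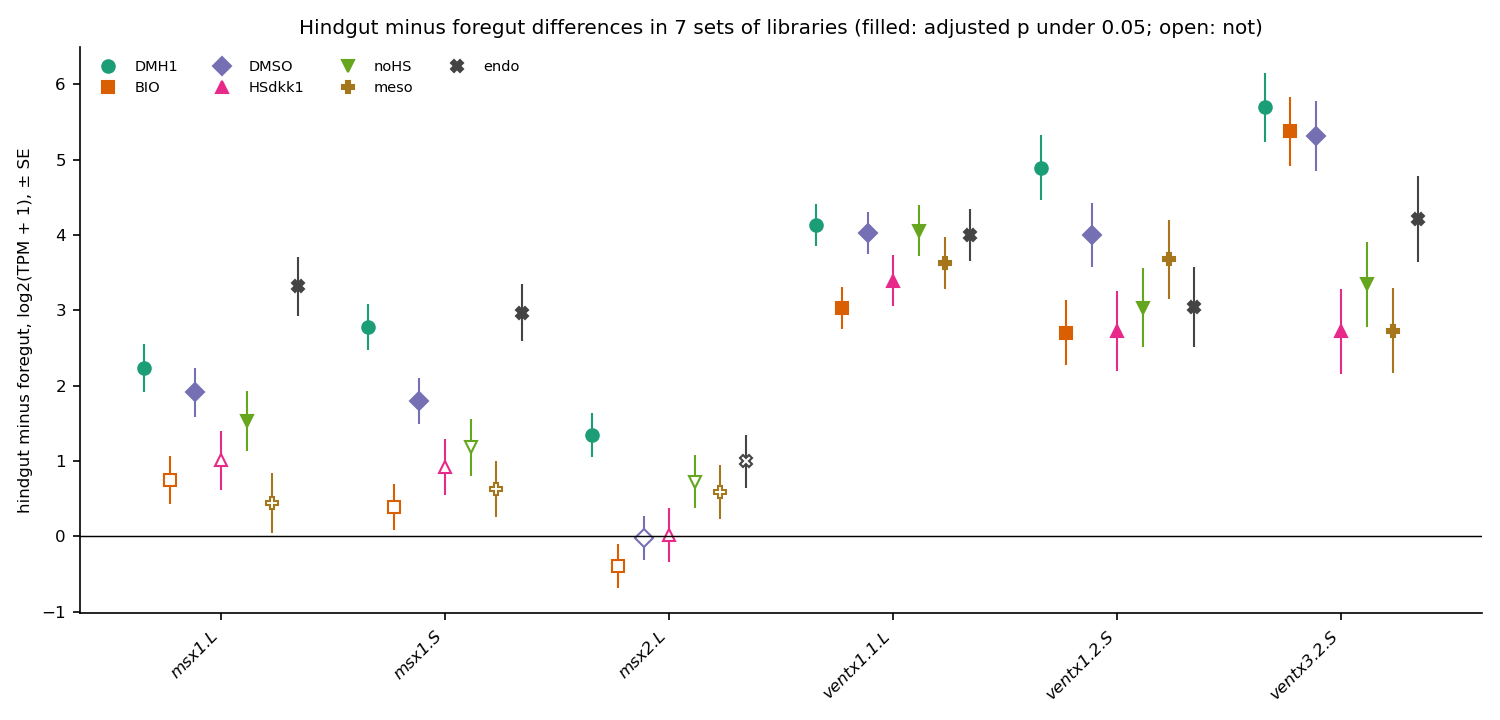
Hindgut minus foregut difference of each member in log2(TPM + 1), with bars of 1 SE, in the 7 sets of libraries (DMH1, BIO, DMSO, HSdkk1, noHS, meso, endo); filled symbols have adjusted p under 0.05. In this fit over all groups all 21 ventx symbols are filled and lie between 2.70 and 5.69, while msx2.L is filled only under DMH1.

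Under BMP receptor blockade, msx2.L was lower in both regions and msx1.S in the foregut. msx2.L had 3.11, 1.52 and 3.05 TPM in FG_DMH1, against 13.6, 26.9 and 27.1 TPM in FG_DMSO. All treated libraries lay far under all vehicle libraries (log2 difference −2.70, SE 0.29, adjusted p = 3.42e-06). In hindgut msx2.L had 6.33, 6.99 and 10.7 TPM in HG_DMH1, against 20.1, 22.5 and 21.2 TPM in HG_DMSO, again with no overlap (log2 difference −1.33, SE 0.29, adjusted p = 0.0149). The hindgut call was lost with HG_DMSO replicate 2 (adjusted p = 0.0892) or 3 (0.0567) left out, with HG_DMH1 replicate 1 (0.110) or 2 (0.0677) left out, and at a pseudocount of 0.1 (0.0532). The hindgut effect minus the foregut effect did not pass (log2 difference 1.36, SE 0.41, adjusted p = 0.419).

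msx1.S had 10.99, 6.2 and 16.9 TPM in FG_DMH1, against 28.2, 53.5 and 57.7 TPM in FG_DMSO, with no overlap (log2 difference −1.97, SE 0.31, adjusted p = 0.000457). msx1.L had 26.1, 24.6 and 63.7 TPM in FG_DMH1, against 49.9, 90.3 and 119 TPM in FG_DMSO, and 1 treated library lay above the lowest vehicle library. It did not pass (log2 difference −1.21, SE 0.32, adjusted p = 0.0794), but did when replicate numbers entered as a block (adjusted p = 0.0106), with homeologs summed (0.0207), without FG_DMSO replicate 1 (0.0129) and without FG_DMH1 replicate 3 (0.00805). In hindgut, msx1.L had 147, 164 and 192 TPM in HG_DMH1, against 244, 309 and 389 TPM in HG_DMSO. msx1.S had 69.2, 71.6 and 95.9 TPM in HG_DMH1, against 129, 184 and 162 TPM in HG_DMSO. Neither hindgut group overlapped its vehicle group and neither gene passed (log2 difference −0.88, SE 0.32, adjusted p = 0.318 for msx1.L, and log2 difference −1.0, SE 0.31, adjusted p = 0.152 for msx1.S, which passed with the block at 0.0493).

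Among the ventx genes none was called under DMH1 in either region. ventx1.2.S had 0.72, 2.46 and 0.96 TPM in FG_DMH1, against 2.16, 6.36 and 16.9 TPM in FG_DMSO, where the vehicle libraries themselves spread widely (log2 difference −1.72, SE 0.43, adjusted p = 0.0578, or 0.00651 with the block). It also passed without FG_DMSO replicate 1 (adjusted p = 0.00174), without FG_DMH1 replicate 2 (0.0324), at a pseudocount of 0.1 (0.0318) and with median-of-ratios scaling (0.0492). ventx1.1.L had 1.12, 1.01 and 1.16 TPM in FG_DMH1, against 2.03, 1.83 and 3.55 TPM in FG_DMSO, without overlap (log2 difference −0.69, SE 0.28, adjusted p = 0.476). In hindgut ventx1.1.L had 33.5, 40.3 and 33.6 TPM in HG_DMH1, against 51.4, 56.3 and 55.2 TPM in HG_DMSO (−0.59, SE 0.28). These groups did not overlap. ventx1.2.S had 51.1, 79.0 and 72.3 TPM in HG_DMH1, against 104, 109 and 146 TPM in HG_DMSO (−0.83, SE 0.43), again with no overlap. ventx3.2.S was the only one of the 6 members whose HG_DMH1 and HG_DMSO libraries overlapped. It had 106, 102 and 83.5 TPM in HG_DMH1, against 76.0, 53.1 and 97.7 TPM in HG_DMSO (0.40, SE 0.46). In foregut it was near the bottom of the scale in both groups, at 1.19, 1.11 and 0.47 TPM in FG_DMH1 and 0.83, 0.44 and 1.48 TPM in FG_DMSO.

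In all, 2 of 6 members were lower in FG_DMH1 and none higher, with 0.738% of all features called and 0.509% called lower. In HG_DMH1 1 of 6 was lower and none higher, with 1.16% of features called and 0.225% called lower, although 5 of 6 members did not overlap vehicle. Of all features, 13.5% did not overlap between these groups, and 3.71% had every HG_DMH1 library under every HG_DMSO library. Between FG_DMH1 and FG_DMSO, 14.1% of all features did not overlap. With the replicate block the counts became 4 and 2, and in fits to the compared groups alone 0 and 0. The share of all features called was not counted in those other fits, so these changes are not read as particular to the members. The difference between the DMH1 effects of the 2 regions was called for 0 of 6 members by limma (2 at an unadjusted p under 0.05), with 0.149% of features called. In that test 1267 of 28863 features had an unadjusted p under 0.05. HG_DMH1 was above FG_DMH1 for 6 of 6 members, where 9.84% of all features were called, 4.6% higher, and 31.3% did not overlap. Among these members was msx2.L, which was not called between HG_DMSO and FG_DMSO (HG_DMH1 against FG_DMH1, log2 difference 1.34, SE 0.29, adjusted p = 0.00225, or 0.108 with homeologs summed). Neural plate markers summed to 470.3 to 698 TPM in FG_DMH1 and 236 to 551 TPM in FG_DMSO. Epidermis markers summed to 2335 to 2697 and 2103 to 3381 TPM in these groups, and paraxial mesoderm markers to 476 to 683 TPM in HG_DMH1 and 133 to 466 TPM in HG_DMSO. Their part in the members' values was not tested.

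Under the GSK3 blocker BIO, both msx1 copies and ventx1.1.L were higher in the foregut, and no member was called in the hindgut. msx1.L had 186, 212 and 244 TPM in FG_BIO, against 49.9, 90.3 and 119 TPM in FG_DMSO (log2 difference 1.38, SE 0.32, adjusted p = 0.00778). msx1.S had 112, 127 and 137 TPM in FG_BIO, against 28.2, 53.5 and 57.7 TPM in FG_DMSO (log2 difference 1.47, SE 0.31, adjusted p = 0.00292). ventx1.1.L had 9.50, 5.44 and 7.28 TPM in FG_BIO, against 2.03, 1.83 and 3.55 TPM in FG_DMSO (log2 difference 1.28, SE 0.28, adjusted p = 0.0045). For these 3 genes every BIO library lay above every vehicle library, and the size was about the same, 2.43- to 2.77-fold. Of all features, 8.86% were separated upward in this way, and 26.8% did not overlap in either direction. The call for msx1.L was lost without FG_DMSO replicate 1 (adjusted p = 0.0638). Without the number 1 libraries of all 6 groups, msx1.L (0.094) and ventx1.1.L (0.151) were not called.

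ventx1.2.S had 13.3, 13.3 and 20.8 TPM in FG_BIO, against 2.16, 6.36 and 16.9 TPM in FG_DMSO, and the highest vehicle library lay above 2 of the 3 treated ones (log2 difference 1.14, SE 0.43, adjusted p = 0.124, or 0.0303 with the block and 0.00925 without FG_DMSO replicate 3). msx2.L had 32.6, 34.5 and 33.0 TPM in FG_BIO, against 13.6, 26.9 and 27.1 TPM in FG_DMSO, without overlap (log2 difference 0.61, SE 0.29, adjusted p = 0.261). ventx3.2.S had 0.88, 0.61 and 0.48 TPM in FG_BIO, against 0.83, 0.44 and 1.48 TPM in FG_DMSO, so the ventx gene that separated the regions most by fold was at the bottom of the scale in both (−0.18, SE 0.46). Thus 3 of 6 members were higher and none lower, with 6.43% of features called and 1.92% called higher (29.9% of all calls, or 41.4% with median-of-ratios scaling), or 4 of 6 with the block and 0 of 6 in a fit to the 2 groups alone. The levels in FG_BIO stayed under those of hindgut for the ventx genes. Against FG_BIO, HG_BIO was higher for ventx1.1.L (3.03), ventx1.2.S (2.70) and ventx3.2.S (5.37), where 2.65% of all features were called higher. It was not called for msx1.L (0.75, SE 0.32), msx1.S (0.38, SE 0.31) or msx2.L (−0.39, SE 0.29).

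In hindgut, msx1.L had 266, 388 and 445 TPM in HG_BIO and 244, 309 and 389 TPM in HG_DMSO. msx1.S had 106, 208 and 197 TPM in HG_BIO and 129, 184 and 162 TPM in HG_DMSO. The ranges of both copies overlapped. msx2.L had 23.7, 26.0 and 25.9 TPM in HG_BIO and 20.1, 22.5 and 21.2 TPM in HG_DMSO, just clear of each other (0.23, SE 0.29). ventx1.1.L had 57.3, 76.4 and 66.5 TPM in HG_BIO and 51.4, 56.3 and 55.2 TPM in HG_DMSO, also clear (0.28, SE 0.28). For ventx1.2.S (HG_BIO 86.5 to 119 TPM, HG_DMSO 104 to 146 TPM) and ventx3.2.S (HG_BIO 58.5 to 81.5 TPM, HG_DMSO 53.1 to 97.7 TPM) the ranges overlapped. limma called 0 of 6 members (0 at an unadjusted p under 0.05), with 0.0277% of features called. Between HG_BIO and HG_DMSO, 12.3% of all features did not overlap, and 1795 of 28863 had an unadjusted p under 0.05. The foregut and hindgut BIO effects were not shown to differ: 0 of 6 members passed (4 at an unadjusted p under 0.05), msx1.S coming closest (log2 difference −1.41, SE 0.43, adjusted p = 0.193), with 0.828% of features called. In that test 1701 of 28863 features had an unadjusted p under 0.05. Tail bud markers summed to 55.3 to 89.9 TPM in FG_BIO and 2.38 to 9.94 TPM in FG_DMSO, with 4 of 10 rows reaching 1 TPM in each. The tail bud list holds cdx4, which is also in the list of Wnt-induced genes counted below. Neural crest markers summed to 92.0 to 336 and 46.4 to 104 TPM in these groups, and epidermis markers to 1024 to 1258 and 2103 to 3381 TPM. The part of these markers in the members' values was not tested. The BIO, DMH1 and hindgut comparisons with FG_DMSO share the 3 FG_DMSO libraries, of which replicate 1 was lowest for both msx1 copies, msx2.L and ventx1.2.S.

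**Figure D3:**
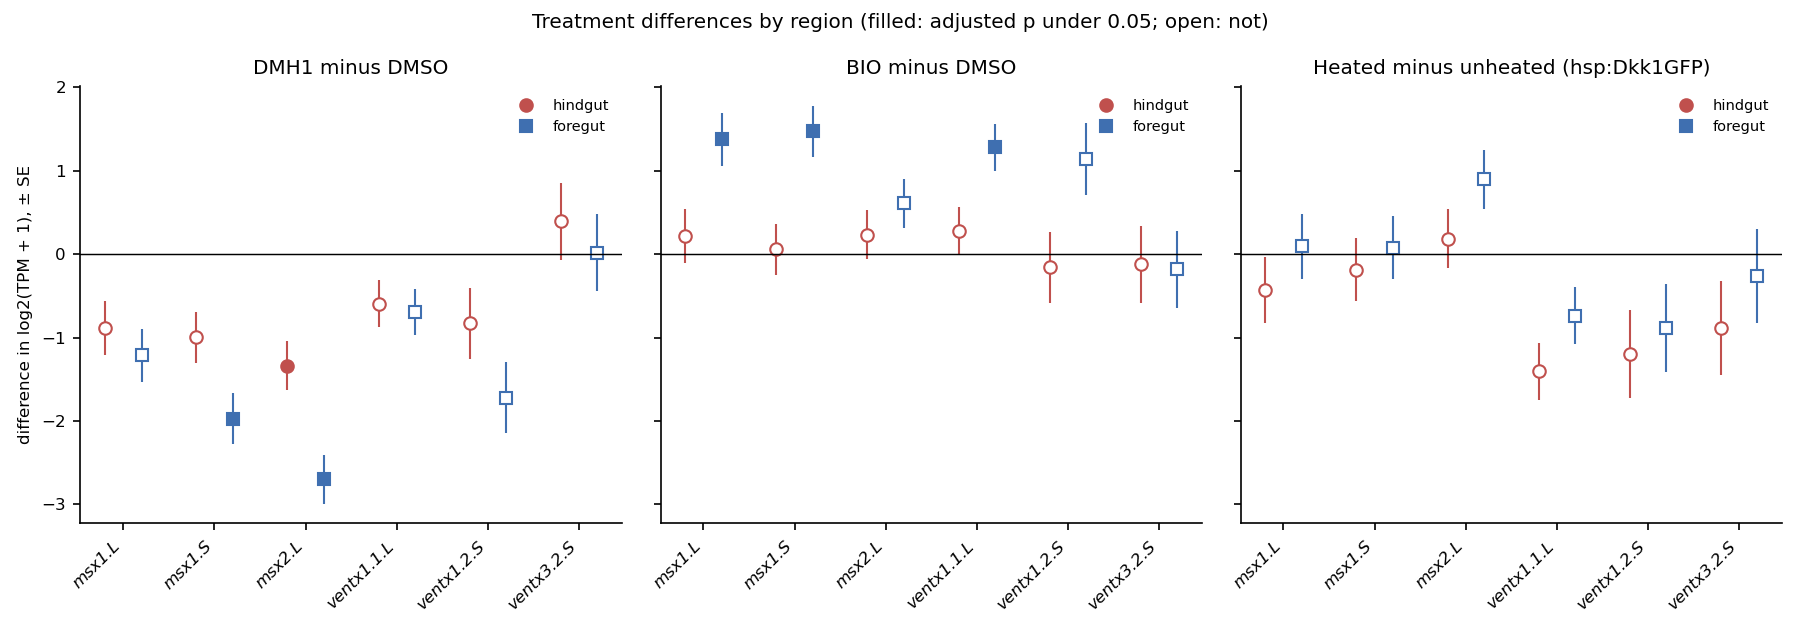
Treated minus control difference of each member in log2(TPM + 1), with bars of 1 SE, for DMH1, BIO and heat (hsp:Dkk1GFP), in hindgut (red circles) and foregut (blue squares); filled symbols have adjusted p under 0.05. DMH1 has filled symbols for msx2.L at −2.70 in foregut and −1.33 in hindgut and for msx1.S at −1.97 in foregut. BIO has filled symbols only in the foregut, and heat has none.

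No member was called after heat in either region. ventx1.1.L had 40.5 and 44.9 TPM in HG_HSdkk1, against 103 and 126 TPM in HG_noHS, with no overlap (log2 difference −1.40, SE 0.34, adjusted p = 0.421). ventx1.2.S had 45.7 and 67.2 TPM in HG_HSdkk1, against 113 and 145 TPM in HG_noHS, with no overlap (−1.19, SE 0.52). ventx3.2.S had 22.0 and 55.1 TPM in HG_HSdkk1, against 54.7 and 77.6 TPM in HG_noHS, and overlapped (−0.88, SE 0.56). For ventx1.1.L and ventx1.2.S both heated libraries lay under both unheated ones, and for ventx3.2.S 1 of the 2 did. Such separation was common here: 22.4% of all features did not overlap between HG_HSdkk1 and HG_noHS, and 10.1% lay lower in every heated library. msx1.L had 315 and 259 TPM in HG_HSdkk1, against 375 and 395 TPM in HG_noHS. msx1.S had 191 and 166 TPM in HG_HSdkk1, against 234 and 177 TPM in HG_noHS. msx2.L had 18.7 and 17.7 TPM in HG_HSdkk1, against 13.7 and 18.3 TPM in HG_noHS. Of these msx rows only msx1.L did not overlap (−0.43, SE 0.39).

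In foregut, msx1.L had 161 and 125 TPM in FG_HSdkk1, against 128 and 138 TPM in FG_noHS. msx1.S had 99.4 and 89.0 TPM in FG_HSdkk1, against 98.7 and 80.3 TPM in FG_noHS. Both overlapped. msx2.L had 22.5 and 14.3 TPM in FG_HSdkk1, against 8.14 and 10.3 TPM in FG_noHS, without overlap (0.90, SE 0.36). ventx1.1.L had 4.67 and 2.04 TPM in FG_HSdkk1, against 8.80 and 3.89 TPM in FG_noHS. ventx1.2.S had 10.48 and 5.35 TPM in FG_HSdkk1, against 17.7 and 12.3 TPM in FG_noHS, without overlap (−0.89, SE 0.52). ventx3.2.S had 2.41 and 7.68 TPM in FG_HSdkk1, against 2.26 and 12.1 TPM in FG_noHS, and overlapped as ventx1.1.L did. Between these foregut groups 20.6% of all features did not overlap. limma called 0 of 6 in HG_HSdkk1 and 0 of 6 in FG_HSdkk1, with 0.00693% and 0.0243% of features called. At an unadjusted p under 0.05 there were 2 members in each, beside 676 and 524 of 28863 features. A difference of the heat effect between the regions passed for 0 of 6 members, with 0.0139% of features called. At an unadjusted p under 0.05 that difference had 0 members, beside 301 of 28863 features. Without the 2 libraries that hold the abundant unnamed feature, which leaves 1 library in each hindgut group, 0 of 6 members were called in HG_HSdkk1 and 0 of 6 for the difference between regions. The hindgut differences were then −1.33 for ventx1.1.L, −1.29 for ventx1.2.S and −1.28 for ventx3.2.S, and the lone libraries are assumed to vary like the other groups. As to dkk1 itself, dkk1.L had 7.05 to 8.10 TPM in HG_HSdkk1 and 6.17 to 13.4 TPM in HG_noHS, and 14.7 to 16.8 TPM in FG_HSdkk1 and 15.9 to 20.8 TPM in FG_noHS. Whether reads of the transgene would be counted in the dkk1 rows is not given in the sources used here.

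The regions of the heat experiment differed for the ventx genes, with or without heat. HG_noHS was above FG_noHS for 4 of 6 members, with msx1.L (log2 difference 1.53, SE 0.39, adjusted p = 0.0461) beside ventx1.1.L (4.06), ventx1.2.S (3.03) and ventx3.2.S (3.34), and 0.662% of features were called higher. The call of msx1.L was lost with any 1 of the 4 libraries left out (adjusted p of 0.188 to 0.285), and that of ventx3.2.S without FG_noHS replicate 1 (adjusted p = 0.0669). Without the 2 libraries that hold the abundant unnamed feature, msx1.L was not called (0.306) and the 3 ventx members were (3.91, 2.86 and 3.09). HG_HSdkk1 was above FG_HSdkk1 for the 3 ventx members (3.39, 2.72 and 2.72), with 0.388% of features called higher. Of these, ventx1.1.L alone was called (1 of 6) without those 2 libraries, and ventx1.2.S also lost its call without FG_HSdkk1 replicate 2 (adjusted p = 0.105) and ventx3.2.S without FG_HSdkk1 replicate 1 (0.416) or at a pseudocount of 0.1 (0.136). In fits to the 2 groups alone, 0 of 6 members were called in either comparison.

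Between the tissue layers the families went opposite ways in the foregut. The mesoderm layer was higher for msx1.L, msx1.S and msx2.L and lower for ventx1.1.L, ventx1.2.S and ventx3.2.S, with no overlap for any of the 6. Calls were common here, at 26.5% of all features, and 45.6% of features had no overlap between FG_meso and FG_endo. msx1.L had 196 and 133 TPM in FG_meso, against 49.0 and 60.8 TPM in FG_endo (log2 difference 1.54, SE 0.39, adjusted p = 0.00355). msx1.S had 129.9 and 85.0 TPM in FG_meso, against 10.98 and 9.94 TPM in FG_endo (log2 difference 3.21, SE 0.38, adjusted p = 1.13e-07). msx2.L had 16.8 and 11.5 TPM in FG_meso, against 1.17 and 5.05 TPM in FG_endo (log2 difference 2.04, SE 0.36, adjusted p = 5.38e-05). msx1.S, at 9.27-fold, was the most layered of the 3, and the call of msx1.L was lost without FG_meso replicate 1 (adjusted p = 0.0636). ventx1.1.L had 2.35 and 1.89 TPM in FG_meso, against 8.13 and 22.9 TPM in FG_endo (log2 difference −2.25, SE 0.34, adjusted p = 8.29e-06). ventx1.2.S had 4.55 and 6.21 TPM in FG_meso, against 38.6 and 121 TPM in FG_endo (log2 difference −3.46, SE 0.52, adjusted p = 7.75e-06). ventx3.2.S had 0.46 and 0 TPM in FG_meso, against 29.7 and 17.7 TPM in FG_endo (log2 difference −4.31, SE 0.56, adjusted p = 7.8e-07). The 2 FG_endo libraries differed widely from each other for ventx1.1.L and ventx1.2.S, replicate 2 holding the higher value. Without FG_endo replicate 1 all 6 members were still called in these directions, at 1.39 for msx1.L (adjusted p = 0.0352), 3.28 for msx1.S, 1.31 for msx2.L, −2.94 for ventx1.1.L, −4.27 for ventx1.2.S and −3.95 for ventx3.2.S.

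In the hindgut the ventx genes and msx2.L had these directions too, and msx1.L had the opposite one. msx1.L had 256 and 188 TPM in HG_meso, against 491 and 622 TPM in HG_endo, and was lower in the mesoderm layer (log2 difference −1.33, SE 0.39, adjusted p = 0.00934). Its call was lost without HG_endo replicate 2 (adjusted p = 0.0790), without HG_meso replicate 2 (0.0932) and with homeologs summed (−0.75, 0.145). msx1.S had 179 and 148 TPM in HG_meso, against 90.5 and 86.5 TPM in HG_endo, without overlap (log2 difference 0.87, SE 0.38, adjusted p = 0.0766, or 0.0375 with the replicate block). msx2.L had 23.01 and 20.1 TPM in HG_meso, against 5.22 and 7.35 TPM in HG_endo, and was higher in the mesoderm layer (log2 difference 1.64, SE 0.36, adjusted p = 0.000584). ventx1.1.L had 40.9 and 34.2 TPM in HG_meso, against 239 and 232 TPM in HG_endo (log2 difference −2.62, SE 0.34, adjusted p = 6.18e-07). ventx1.2.S had 73.9 and 86.0 TPM in HG_meso, against 483 and 675 TPM in HG_endo (log2 difference −2.82, SE 0.52, adjusted p = 9.64e-05). ventx3.2.S had 9.42 and 5.15 TPM in HG_meso, against 564 and 347 TPM in HG_endo (log2 difference −5.79, SE 0.56, adjusted p = 3.86e-09). It was the most endodermal of the members, the fold of mesoderm over endoderm being 0.0181.

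The layer effect differed between the regions for both msx1 copies. The hindgut effect minus the foregut effect was −2.87 for msx1.L (SE 0.56, adjusted p = 0.00109) and −2.34 for msx1.S (SE 0.53, adjusted p = 0.00472), 2 of 6 members where 8.32% of features were called (57.8% of the calls positive, or 45.3% with median-of-ratios scaling). Without FG_endo replicate 1 they were −2.72 (adjusted p = 0.00585) and −2.40 (0.0106), again the 2 called. Both fell just short in a fit to the 4 layer groups alone (0.0509 and 0.0519). For msx2.L (−0.40), ventx1.1.L (−0.38), ventx1.2.S (0.63) and ventx3.2.S (−1.48) the difference did not pass, with adjusted p of 0.321 to 0.773. At a pseudocount of 5, ventx1.1.L (adjusted p = 0.0499) and ventx3.2.S (0.000722) passed as well. Of the 6 members, 3 were higher and 3 lower in FG_meso (18% of features called higher and 8.5% lower), and 1 was higher and 4 were lower in HG_meso (33.2% called, 21.6% higher and 11.6% lower). In fits to the 2 groups alone the counts were 1 of 6 in FG_meso and 5 of 6 in HG_meso, where msx1.S then passed (adjusted p = 0.0456) and msx1.L did not (0.0666). As given above, epidermis markers were at most 21.6 TPM in the endoderm layers and at least 5704 TPM in the mesoderm layers, and their part in the msx values was not tested.

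Within the endoderm, hindgut was above foregut for 5 of 6 members (10.7% of features called higher). The 2 msx1 copies had their largest difference between regions there, 3.32 (SE 0.39, adjusted p = 6.96e-07) and 2.97 (SE 0.38, adjusted p = 1.74e-06), beside ventx1.1.L (4.0), ventx1.2.S (3.04) and ventx3.2.S (4.21). msx2.L was near the threshold (log2 difference 0.99, SE 0.36, adjusted p = 0.0523, or 0.0405 with the replicate block and 0.000522 without FG_endo replicate 2). Without FG_endo replicate 1 these 5 members were called again, at 3.16, 3.03, 3.31, 2.23 and 4.57, and msx2.L was not (0.25). Within the mesoderm layer, the ventx genes were higher in hindgut (3.63, 3.67 and 2.73), 3 of 6 members with 1.44% of features called higher, and msx1.L (0.44, SE 0.39), msx1.S (0.63, SE 0.38) and msx2.L (0.59, SE 0.36) were not called. The ventx3.2.S call there was lost without FG_meso replicate 2 (adjusted p = 0.0847), without HG_meso replicate 1 (0.104) and at a pseudocount of 5 (0.103). Paraxial and presomitic mesoderm markers summed to 493 to 560 TPM in HG_meso and 4.2 to 7.13 TPM in FG_meso, with 11 and 3 of 12 rows reaching 1 TPM. Tail bud markers summed to 245 to 317 TPM in HG_meso and 2.39 to 4.11 TPM in FG_meso, and lateral plate and cardiac markers to 67.9 to 85.0 TPM in HG_meso and 177 to 217 TPM in FG_meso. Endoderm markers summed to 87.2 to 105 TPM in HG_meso and 124 to 131 TPM in FG_meso, against 9544 to 9870 TPM in HG_endo. ventx3.2.S had 9.42 and 5.15 TPM in HG_meso and 0.46 and 0 TPM in FG_meso. The part of all these markers in the ventx values was not tested. In fits to the 2 groups alone both counts were 0 of 6.

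Dorsal explants had neural plate markers that summed to 960.0 to 1418 TPM and neural crest markers that summed to 396 to 669.9 TPM. Paraxial and presomitic mesoderm markers summed to 1152 to 1307 TPM there, and epidermis markers to 1200 to 1777 TPM. Endoderm markers summed to 272 to 374 TPM, tail bud markers to 169 to 214 TPM and notochord markers to 90.5 to 139 TPM. The part of these markers in the members' values was not tested. The Dorsal mean lay between those of HG_DMSO and FG_DMSO for every member but msx2.L, where it was under both. Of the 6 members, 4 were not called against FG_DMSO. msx1.L had 218, 125 and 90.1 TPM in Dorsal, lower than in HG_DMSO (log2 difference −1.18, SE 0.32, adjusted p = 0.00511, or 0.0517 without Dorsal replicate 3), and was not called against FG_DMSO (log2 difference 0.72, SE 0.32, adjusted p = 0.0872, or 0.0228 with median-of-ratios scaling, 0.0435 with homeologs summed, 0.0355 without FG_DMSO replicate 3 and 0.0297 without Dorsal replicate 3). msx1.S had 143, 78.7 and 62.9 TPM in Dorsal, lower than in HG_DMSO (log2 difference −0.81, SE 0.31, adjusted p = 0.043) and higher than in FG_DMSO (log2 difference 0.99, SE 0.31, adjusted p = 0.0144). Replicate 1 was the highest of the 3 for both copies. Both msx1.S calls rested on few libraries: the first was lost without Dorsal replicate 2 or 3 or HG_DMSO replicate 2 or 3 (adjusted p of 0.101 to 0.226) and under 4 other settings, a pseudocount of 0.1, no filter, median-of-ratios scaling and a fit to the 2 groups alone (0.0516 to 0.138), and the second without FG_DMSO replicate 1 (0.116) or Dorsal replicate 1 (0.138). msx2.L had 18.0, 17.8 and 13.3 TPM in Dorsal and was called against neither.

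ventx1.1.L had 9.26, 6.80 and 8.10 TPM in Dorsal, lower than in HG_DMSO (log2 difference −2.62, SE 0.28, adjusted p = 3.43e-08) and higher than in FG_DMSO (log2 difference 1.41, SE 0.28, adjusted p = 0.000317), the second call being lost with homeologs summed (0.39, adjusted p = 0.534). ventx1.2.S had 13.9, 12.6 and 8.16 TPM in Dorsal, lower than in HG_DMSO (log2 difference −3.28, SE 0.43, adjusted p = 9.13e-07). ventx3.2.S had 2.32, 4.23 and 0.34 TPM in Dorsal, lower than in HG_DMSO (log2 difference −4.70, SE 0.46, adjusted p = 7.82e-09). Against FG_DMSO neither passed (0.72 and 0.61), though ventx1.2.S did without FG_DMSO replicate 3 (adjusted p = 0.0144) and ventx3.2 with homeologs summed (1.90, adjusted p = 0.000159). So 5 of 6 members were lower than in HG_DMSO (33.7% of features called, 18.1% lower) and 2 of 6 were higher than in FG_DMSO (32.3% called, 10.9% higher; of all calls 33.7% were higher, or 51.2% with median-of-ratios scaling), or 3 and 1 in fits to the 2 groups alone.

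The copies of a gene could be set against each other within a library. A program that estimates abundances can split reads between near-identical copies, so the level of each copy is uncertain. The share of msx1 TPM that came from msx1.L was 81.7% to 87.8% in the 4 endoderm libraries (median 85.2%) and 55.9% to 79.9% in the other 33 (median 62.8%). These ranges do not overlap, but FG_DMH1 replicates 2 and 3 came close, at 79.9% and 79.0%. How many other homeolog pairs separate the endoderm libraries in this way was not counted. The test of the .L to .S ratio was chosen after these shares were seen and was run over 7104 homeolog pairs. The log2 ratio of msx1 was lower in the mesoderm layer in hindgut (−2.20, SE 0.23, adjusted p = 3.07e-08) and in foregut (−1.67, SE 0.23, adjusted p = 3.47e-06). Ratios were called for 34.8% and 28.2% of all pairs in these comparisons. In a fit to the foregut layers alone the ratio of msx1 did not pass (adjusted p = 0.0562).

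For msx2 the copies parted under DMH1 in the foregut, and for no other msx or ventx pair did the ratio pass there. The log2 ratio of msx1 went the other way without passing (0.76, SE 0.19, adjusted p = 0.0761), as did that of ventx1.2 (1.25, SE 0.43, adjusted p = 0.340). msx2.L made up 25.3% ± 4.81 of msx2 TPM in FG_DMH1 and 51.8% ± 6.87 in FG_DMSO (SD, n = 3 each), with msx2.S at 10.52, 5.30 and 6.83 TPM in FG_DMH1, against 16.9, 24.3 and 19.4 TPM in FG_DMSO. msx2.S was itself lower (log2 difference −1.34, SE 0.30, adjusted p = 0.0232), so both copies fell and msx2.L by more. The test of the ratio passed (−1.36, SE 0.23, adjusted p = 0.00471), where 0.239% of pairs were called, but not without FG_DMSO replicate 3 (adjusted p = 0.0663) or in a fit to the 2 groups alone (0.173). In hindgut the share was 45.8% ± 5.58 in HG_DMH1 and 52.5% ± 3.51 in HG_DMSO (SD, n = 3 each), and the ratio did not pass (−0.36, SE 0.23, adjusted p = 0.931). Between HG_DMH1 and FG_DMH1 it did (1.04, SE 0.23, adjusted p = 0.00297; 9.53% of pairs called). In the layers msx2.L had a larger share in mesoderm, 0.82, SE 0.28, adjusted p = 0.0229 in hindgut and 0.94, SE 0.28, adjusted p = 0.0122 in foregut. The hindgut call was lost with any 1 of its 4 libraries left out (adjusted p of 0.0533 to 0.110), and the foregut call without FG_endo replicate 1 (0.149) or FG_meso replicate 2 (0.251).

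Among the ventx pairs, ventx1.1.L made up 40.7% ± 1.39 of ventx1.1 TPM in FG_meso and 14.1% ± 1.69 in FG_endo (SD, n = 2 each), and its ratio was higher in mesoderm (2.12, SE 0.54, adjusted p = 0.00373). In Dorsal the share of ventx1.1.L was 66.2% ± 4.29, against 31.8% ± 23.6 in FG_DMSO and 32.8% ± 8.03 in HG_DMSO (SD, n = 3 each), and the ratio passed against both (1.92, SE 0.44, adjusted p = 0.00261 against FG_DMSO, where 18.8% of pairs were called; 1.87, SE 0.44, adjusted p = 0.00238 against HG_DMSO, 25.6% called). ventx3.2.L made up 72.2% ± 6.46 of ventx3.2 TPM in HG_meso and 39.4% ± 8.38 in HG_endo (SD, n = 2 each), with a ratio that passed (1.90, SE 0.48, adjusted p = 0.00304), but not without HG_endo replicate 1 (adjusted p = 0.0507), at a pseudocount of 0.1 (0.118) or in a fit to the 2 groups alone (0.0587). In Dorsal ventx3.2.L made up 73.2% ± 18.2, against 36.3% ± 4.202 in HG_DMSO (SD, n = 3 each; 1.91, SE 0.39, adjusted p = 0.000755). Against FG_DMSO, where ventx3.2 was near 0, the ratio was 1.65, SE 0.39, adjusted p = 0.00375. In fits to Dorsal and FG_DMSO alone neither ratio passed (adjusted p = 0.0674 for ventx1.1 and 0.0732 for ventx3.2). ventx3.2.L itself had 19.7 and 17.0 TPM in HG_meso, against 283 and 287 TPM in HG_endo, and was listed at 0 in both FG_meso libraries.

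**Figure D4:**
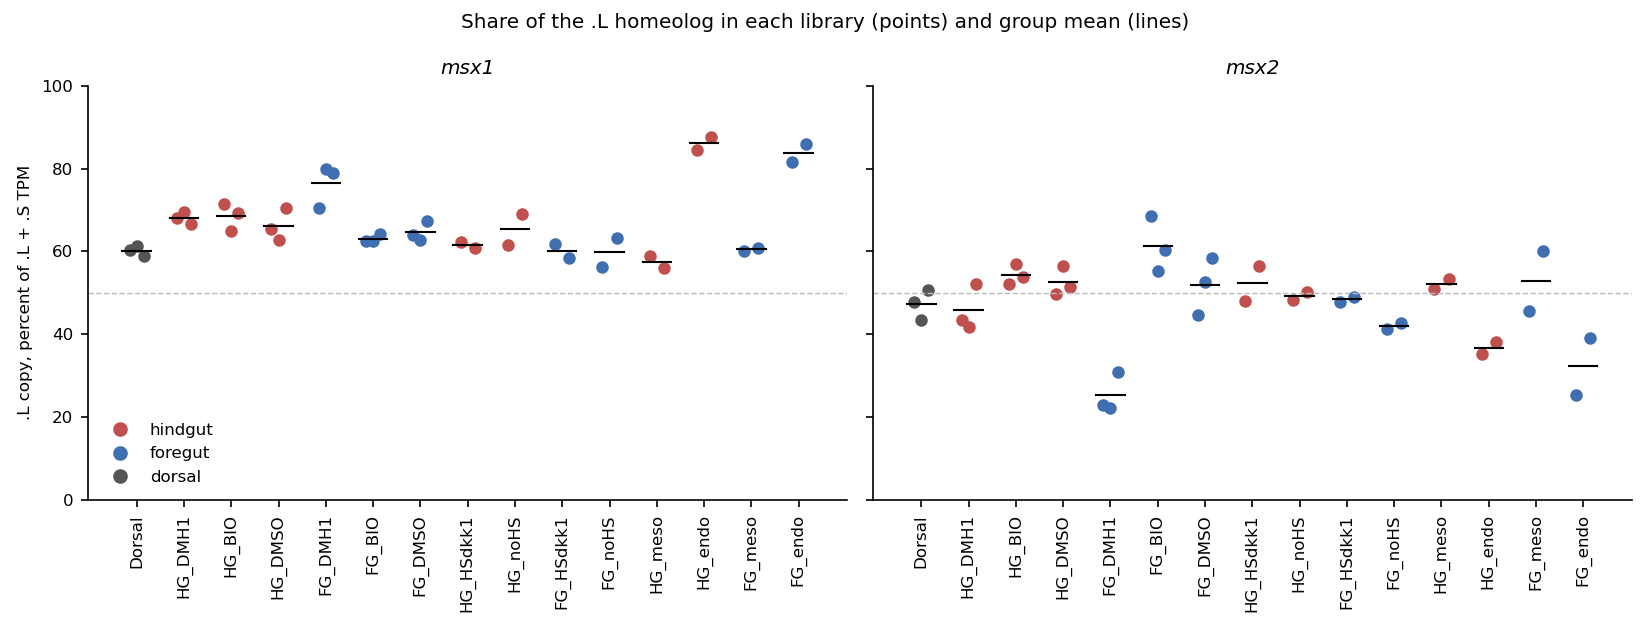
Share of the .L copy in the summed TPM of both copies of msx1 and of msx2, in percent, in every library (points) of the 15 groups with the group mean as a line; the dashed line marks equal shares. The endoderm libraries hold the highest msx1.L shares (81.7% to 87.8%), and FG_DMH1 has a mean msx2.L share of 25.3%, against 51.8% in FG_DMSO.

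The remaining ventx rows had the regional pattern of the members, apart from ventx3.1.S. ventx1.1.S had 74.4, 116 and 167 TPM in HG_DMSO, against 1.41, 8.58 and 15.3 TPM in FG_DMSO (3.98, SE 0.52). ventx1.2.L had 61.9, 38.1 and 64.2 TPM in HG_DMSO, against 1.04, 2.35 and 1.5 TPM in FG_DMSO (4.40, SE 0.32). ventx3.2.L had 36.2, 29.9 and 66.9 TPM in HG_DMSO, against 0.5, 0.4 and 0 TPM in FG_DMSO (5.06, SE 0.29). All 3 were higher in hindgut and lower in both mesoderm layers, and none was called under DMH1, BIO or heat in the fit over all groups. With the replicate block, ventx1.1.S (adjusted p = 0.00671, against 0.0917 without the block) and ventx1.2.L (0.0468, against 0.0586) were higher in FG_BIO. ventx3.1.S never passed 2.73 TPM in a library and is not read further. msx2.S was not called between hindgut and foregut in any of the 7 sets.

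Other genes of the BMP pathway were counted beside the members. The list holds 46 symbols of ligands, receptors, Smads, inhibitors and targets, with 72 rows tested, none of them msx or ventx. In FG_DMH1, 17 were lower, 0 higher and 55 were not called (median −0.38, against 0 over all features). Of all features, 0.509% were called lower and 0.229% higher there. Lower rows came from 7 of 17 inhibitor rows, such as bambi.L, a decoy receptor (−1.91, SE 0.25, adjusted p = 3.84e-05), from 4 of 12 ligand rows, such as bmp7.1.S (−1.92, SE 0.20, adjusted p = 2.52e-06), and from 4 of 19 target rows, such as the T-box genes tbx3.L (−2.72, SE 0.25, adjusted p = 7.85e-07) and tbx3.S (−3.24, SE 0.37, adjusted p = 5.26e-06). In HG_DMH1, 18 were lower and 0 higher (median −0.25, against 0.07 over all features). Of all features, 0.225% were called lower and 0.939% higher there. The lower rows of the list included bmp7.1.S (−1.84), tbx3.L (−1.80), bambi.L (−1.71) and bmp7.1.L (−1.46). For msx2.L, the log2 difference of −2.70 in foregut and −1.33 in hindgut stands beside these values.

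Under BIO in the foregut rows of this list were lower while msx1.L, msx1.S and ventx1.1.L were higher. In FG_BIO, 18 of 72 rows were lower and 2 higher, where 4.5% of all features were lower and 1.92% higher (median −0.37, against −0.08 over all features), with bmp7.1.S (−2.52, SE 0.20), bmp7.1.L (−2.01, SE 0.21), bmp4.S (−1.45, SE 0.23) and the target dlx3.L (−1.27, SE 0.18) lower, at adjusted p of 2.05e-09 to 0.000169. Of the 27 rows tested from a list of genes that Wnt signalling induces, 15 were higher in FG_BIO and 0 lower (median 1.26), led by sp5.L (5.82), sp5.S (4.92), cdx2.L (3.36) and axin2.L (3.19). In HG_BIO, 0 of 72 and 0 of 27 rows were called. After heat 0 of 72 and 0 of 27 were called in both regions, with Wnt list medians of −0.38 in hindgut and −0.35 in foregut. In HG_DMSO against FG_DMSO, 12 of 27 Wnt rows were higher and 2 lower, and of 72 BMP rows 5 were higher and 11 lower. Of all features, 2.38% were called higher and 5.08% lower in this comparison.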

How the data were processed

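The submitters' processing notes name FastQC, Trimmomatic and RSEM. Versions and the genome build are not given in the sources used here. The deposited unit is TPM per gene, 40271 rows in 37 libraries, with 1 empty line dropped; the authors computed these TPM values with reads of near-identical copies possibly split between homeologs. TPM is relative within a library and keeps no depth, so precision comes only from the spread between libraries, which the labels call independent replicates. Of 37 columns, 33 were matched to a sample and 4 (hindgut heat libraries) only to their group.

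Values were tested as log2(TPM + 1) with limma 3.58.1 in R 4.3.3, in 1 fit over all 15 groups (22 residual degrees of freedom), on 28863 features with at least 1 TPM in 2 libraries (71.7%), with p-values adjusted by Benjamini-Hochberg over them and a threshold of 0.05. Fold changes are on that log2(TPM + 1) scale and understate changes of low genes. The step was tested on simulated data. A log2 change of 1 was recovered for 55 of 95 changed features in FG_DMH1 against FG_DMSO. In FG_meso against FG_endo it was recovered for 46 of 104. A log2 change of 2 was recovered for 97 of 105 and 81 of 96. Only features with higher means were changed and libraries were drawn as independent, so low rows and paired libraries were not tested. Figures used matplotlib 3.10.9 in Python 3.11.15. The members and lists were chosen with earlier results of these data known. Named rows were the members, other msx and ventx rows, the 3 rows most like each member, and up to 4 rows with the smallest p in each pathway list. dlx3, hand1 and evx1 stand in the BMP list and also in a marker list, as does cdx4 of the Wnt list. RefSeq annotation was used only for gene names and neighbours; 10 of 11 msx and ventx rows matched it. Coordinates and sequences are not analysed here.

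Same-numbered inhibitor libraries deviated together from their group means (r of 0.253 to 0.557 in 45 pairs), so their numbers pair them. Alternatives tried were another pseudocount (0.1 or 5), the filter dropped or raised to 5 TPM, median-of-ratios scaling, replicate number as block, fits to the groups compared alone, summed homeologs, and each library left out. Leaving out the number 1 inhibitor libraries or the 2 hindgut heat libraries with 1 very abundant feature, and the ratio of homeologs, were added after seeing the data.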

Additional observations from a re-analysis of the deposited data

Results flagged for a closer look

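The effect of tissue layer differed between hindgut and foregut for 2 members, by a test of the difference itself in limma. For msx1.L the mesoderm minus endoderm difference was −1.33 in hindgut and 1.54 in foregut, a difference of −2.87 on the log2 scale. For msx1.S it was 0.87 in hindgut and 3.21 in foregut, a difference of −2.34. The direction held with any 1 of the 8 layer libraries left out. Epidermis markers separated the layers in both regions, and their part in these values was not tested.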

How the results depend on the processing

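Over 17 comparisons and 4 differences of effects, counts of called members depended most on whether all groups shared 1 estimate of the spread. In fits to the groups compared alone the count was 3 for HG_DMSO against FG_DMSO, 0 for FG_DMH1 against FG_DMSO, 0 for HG_DMH1 against HG_DMSO and 0 for FG_BIO against FG_DMSO. It was 0 for HG_noHS against FG_noHS, 0 for HG_HSdkk1 against FG_HSdkk1, 1 for FG_meso against FG_endo, 0 for HG_endo against FG_endo and 0 for HG_meso against FG_meso. It was 1 for Dorsal against FG_DMSO, 3 for Dorsal against HG_DMSO and 0 for layer by region. These fits have fewer samples to estimate the spread from. At a pseudocount of 0.1 the count of HG_DMH1 against HG_DMSO was 0, and at a pseudocount of 5 that of layer by region was 4. Without the number 1 inhibitor libraries the counts were 0 for HG_DMH1, 1 for FG_BIO and 1 for Dorsal against FG_DMSO. Without the 2 hindgut heat libraries with 1 very abundant feature, HG_HSdkk1 against FG_HSdkk1 had 1. The causes of these other changes were not tested. The share of all features called was not counted in fits to the groups alone, with the block or with libraries left out.

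With the replicate number as a block, FG_DMH1 against FG_DMSO had 4 called members and HG_DMH1 against HG_DMSO had 2. The block moved no other count of members by over 1.5 times. In the heat experiment 1 pair of foregut groups (r = 0.502) and in the layers 6 pairs of groups (0.101 to 0.335) had same-numbered libraries that deviated together. With only 2 libraries a group, both library pairs of 2 groups give the same r, so each pair of groups holds 1 value. No paired analysis was possible for comparisons with the hindgut heat libraries because their columns carry no replicate number from the labels. Dorsal libraries did not pair with the inhibitor libraries (−0.09 to 0.07).

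Leaving out 1 library at a time gave counts of 1 to 4 for Dorsal against FG_DMSO and 3 to 5 for Dorsal against HG_DMSO. Counts were 2 to 4 for FG_DMH1, 0 to 1 for HG_DMH1 and 2 to 4 for FG_BIO. They were 1 to 3 for HG_HSdkk1 against FG_HSdkk1 and 2 to 3 for HG_noHS against FG_noHS. Among the layers they were 5 to 6 for FG_meso against FG_endo and 4 to 5 for HG_meso against HG_endo. Between regions they were 5 to 6 for HG_endo against FG_endo and 2 to 3 for HG_meso against FG_meso.

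Among the changes of direction none was of a difference called in the fit over all groups. For msx2.L, HG_DMSO against FG_DMSO was 0.16 with median-of-ratios scaling, and HG_HSdkk1 against FG_HSdkk1 was −0.088 with homeologs summed. ventx3.2.S in FG_DMH1 was −0.10 without the number 1 libraries, and msx1.S in HG_meso against HG_endo was −0.75 with homeologs summed. The DMH1 by region difference of ventx1.1.L was −0.26 at a pseudocount of 5 and −0.062 with median-of-ratios scaling, and the BIO by region difference of ventx3.2.S was −0.057, −0.033 and −0.053 at a pseudocount of 5, with that scaling and with homeologs summed. The layer by region difference of ventx3.2.S was 0.64 at a pseudocount of 0.1 and 0.29 with homeologs summed, and that of ventx1.1.L was 0.79 with homeologs summed.

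With 1 library left out, the direction also turned, within these ranges: in FG_HSdkk1, msx1.L (−0.086 to 0.27), msx1.S (−0.069 to 0.23) and ventx3.2.S (−1.26 to 0.74); in HG_HSdkk1, msx1.S (−0.39 to 0.015) and msx2.L (−0.0073 to 0.38); in HG_BIO, msx1.S (−0.12 to 0.37) and ventx3.2.S (−0.35 to 0.081). For msx2.L it turned in HG_DMSO against FG_DMSO (−0.33 to 0.14), in HG_HSdkk1 against FG_HSdkk1 (−0.29 to 0.32) and in layer by region (−1.14 to 0.34). For ventx3.2.S it turned in FG_BIO (−0.37 to 0.022), in FG_DMH1 (−0.17 to 0.22), in BIO by region (−0.17 to 0.26) and in heat by region (−1.62 to 0.38). For ventx1.1.L it turned in DMH1 by region (−0.11 to 0.23) and layer by region (−1.07 to 0.32), and for ventx1.2.S in heat by region (−0.74 to 0.12) and layer by region (−0.18 to 1.44).

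Median-of-ratios scaling moved the median of all features from −0.12 to 0.01 in HG_DMSO against FG_DMSO, 0.11 to 0 in HG_meso against HG_endo, −0.23 to −0.05 in Dorsal against FG_DMSO and 0.10 to 0.00 in BIO by region. It also moved the share of calls that were higher to 56.9%, against 46.7%, in HG_DMH1 against FG_DMH1, and to 49.2%, against 39.2%, in HG_HSdkk1 against FG_HSdkk1. Of the few calls in HG_BIO and HG_HSdkk1, 36.4% and 80.0% were then higher, against 62.5% and 100%.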

Other observations

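Other tissue markers moved between groups in which the members were compared. Blood and endothelium markers summed to 409 to 489 TPM in FG_DMH1 and 52.0 to 95.6 TPM in FG_BIO, against 820.0 to 1128 TPM in FG_DMSO. Tail bud markers summed to 91.2 to 118 TPM in HG_HSdkk1 and 213 to 224 TPM in HG_noHS, where ventx1.1.L had 40.5 and 44.9 TPM in HG_HSdkk1 and 103 and 126 TPM in HG_noHS. They summed to 480 to 532 TPM in HG_endo and 6.91 to 12.5 TPM in FG_endo. Their part in the members' values was not tested.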
